A study of Homo sapiens and Mus musculus with 5 samples.

Results

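The SNP at position 136050568 of chromosome 3, inside the gene PPP2R3A, was read in a STARR-seq library of SNP alleles linked to schizophrenia. It was carried by 3 of the 984 fragments in the tables and by 6 of the 1625 fragment alleles, and all 6 were counted in each of the 4 cell lines and passed the filter on low counts. The members are the rows that bear this position. The SNP was chosen by the RNA over input of allele 2 at the 100/100 and 150/50 placements, already known to be high in all 4 lines, so those values and the calls made on them are given as a description, beside the share of all alleles called.

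STARR-seq is a reporter assay in which a candidate enhancer is cloned into the transcribed part of a plasmid. A fragment that raises transcription from the plasmid's promoter is copied into RNA, and its RNA relative to its share of the plasmid DNA measures its activity. PPP2R3A encodes regulatory subunits of protein phosphatase 2A, a serine/threonine phosphatase built from a scaffold, a catalytic subunit and an exchangeable regulatory subunit that directs it to its substrates. The subunits of this family bind calcium through EF-hand domains.

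The same plasmid library was transfected into 4 lines. SH-SY5Y and Neuro-2a are neuroblastoma lines, human and mouse respectively. HEK-293T derives from human embryonic kidney, and PC-12 from a rat pheochromocytoma, although its label gives mouse as the organism. No treatment or genotype separated the groups. The human fragments were thus read from plasmids, outside their chromosome, and in Neuro-2a and PC-12 in rodent cells. There were 3 RNA libraries each for Neuro-2a, SH-SY5Y and HEK-293T and 2 for PC-12, which bear the numbers 1 and 3, and all 11 were set against the same 3 libraries of plasmid input. The labels do not say how far the replicates of a line were independent beyond calling them biological, so p-values measure the spread between these libraries. In the fits of RNA relative to input, that spread includes the input libraries.

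The 3 fragments differ in where the SNP sits. The 50/150 fragment has 50 bases in front of the SNP and 150 behind it, the 100/100 fragment has the SNP in the middle, and the 150/50 fragment has 150 in front and 50 behind. All 3 share the 50 bases on either side of the SNP and differ in what they hold beyond. If the front is the side of lower coordinates, which the labels do not state, the 50/150 fragment spans chr3:136050518-136050718, the 100/100 fragment chr3:136050468-136050668 and the 150/50 fragment chr3:136050418-136050618. In the RefSeq table of GRCh38.p14, PPP2R3A spans chr3:135965728-136147894, a length of 182.2 kb, and the SNP lies 84.8 kb from its start and 97.3 kb from its end. The gene has 2 RefSeq starts, and the SNP lies 27.8 kb downstream of the nearer one. PPP2R3A is the only protein-coding gene within 10 kb, and the pseudogene DONSONP1 at chr3:136055187-136055764 lies outside all 3 fragments. Exons and introns were not analysed here, nor were the bases of the alleles and the sequences of the fragments. Which build the positions follow was not given in the sources used here, and the gene names hold only for this one. For 2 of the 327 SNPs named by position, the position exceeds the length of chromosome 20 in GRCh37.

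RNA totals lay between 5875437 and 10201521 counts and input totals between 6380682 and 8421333. The libraries numbered 1 stood apart from those numbered 2 and 3 in each line. Over all fragments with both alleles counted, the median size of the log2 allelic effect was between 0.22 and 0.54 in the 4 libraries numbered 1 and between 0.98 and 1.22 in the 7 others. The labels name no day or batch of transfection, and the part of any such difference in the results was not tested. Fitted activities, placement differences and allelic effects are given with and without them, and without replicate 1 PC-12 has a single RNA library.

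The 6 alleles were unevenly filled in the plasmid pool. At 100/100, allele 1 had 1182, 1074 and 1309 counts in the 3 input libraries and allele 2 had 10696, 9746 and 12038. Allele 2 was thus 90.1% ± 0.077 (SD, n = 3) of the pair in the input. At 150/50, allele 1 had 9050, 7360 and 9557 counts and allele 2 had 4547, 4094 and 5073, which is 34.6% ± 1.15 allele 2. At 50/150 the alleles were near balance, with 12933, 10879 and 14111 counts of allele 1 and 14698, 11614 and 15181 of allele 2, or 52.2% ± 0.851 allele 2. Allele 1 of 100/100 was the rarest of the 6, at percentile 13.7 of the mean input count among the alleles of the Neuro-2a table, and allele 2 of 50/150 was the most frequent, at percentile 95.9. Reads amplified by PCR are not independent molecules, so counting error understates the uncertainty.

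Allele 2 of the 100/100 fragment was the most abundant allele of its whole table in 9 of the 11 RNA libraries, and ranked 3 or higher in the other two. It held 0.136% to 0.153% of the input libraries and 0.475% to 1.73% of the RNA libraries. Its log2 RNA over input, scaled so that the typical allele of a library is near 0, was 1.91, 2.74 and 3.48 in replicates 1, 2 and 3 of HEK-293T, and the replicates of SH-SY5Y stood at 2.19, 3.51 and 3.84. Neuro-2a had values of 1.80, 3.35 and 3.33, and replicates 1 and 3 of PC-12 had 2.26 and 3.47. All 11 libraries were above the input, and the library numbered 1 was the lowest in each line. The fits over all libraries of a line gave 2.85 ± 0.41 in HEK-293T (SE, n = 3 RNA libraries), 3.34 ± 0.45 in SH-SY5Y (n = 3), 2.98 ± 0.44 in Neuro-2a (n = 3) and 2.99 ± 0.39 in PC-12 (n = 2). Without replicate 1 they were 3.16, 3.71, 3.31 and 3.47 in the same order. The highest 5% of all alleles began at fitted values of 2.04, 2.19, 2.25 and 2.00 in these lines.

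Allele 2 of the 150/50 fragment was also above the input in 11 of 11 libraries. It stood at 2.06, 2.88 and 2.67 in HEK-293T, at 2.53, 2.79 and 3.37 in SH-SY5Y, at 1.34, 1.99 and 2.39 in Neuro-2a and at 2.42 and 2.75 in PC-12. The fitted values were 2.58 ± 0.24, 2.94 ± 0.25, 1.97 ± 0.29 and 2.60 ± 0.13, and 2.78, 3.13, 2.18 and 2.75 without replicate 1. Neuro-2a was lowest in each numbered replicate, and its highest library was below the lowest of SH-SY5Y. How many other alleles separate these lines in this way was not counted. With all libraries, 0 of 1436 alleles, or 0%, were called to differ between the 4 lines.

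Allele 1 was above the input too at these placements, at a lower level in most libraries. At 150/50 it stood at 1.84, 1.30 and 1.53 in HEK-293T, at 2.23, 1.57 and 1.10 in SH-SY5Y, at 1.08, 0.85 and 0.79 in Neuro-2a and at 2.09 and 1.57 in PC-12. All 11 libraries were positive, and replicate 1 was the highest of each line. At 100/100, where this allele was rare in the input, it stood at 1.83, 0.09 and 1.24 in HEK-293T, at 2.18, 1.21 and 1.12 in SH-SY5Y, at 1.90, -0.86 and 0.46 in Neuro-2a and at 2.28 and 1.37 in PC-12. Only replicate 2 of Neuro-2a, with 518 counts, was below the input, and replicate 1 was again the highest of each line. The fitted values of allele 1 at 100/100 were 1.22 ± 0.50 in HEK-293T, 1.59 ± 0.36 in SH-SY5Y, 0.91 ± 0.73 in Neuro-2a and 1.89 ± 0.31 in PC-12, and in the same order those at 150/50 were 1.57 ± 0.17, 1.71 ± 0.30, 0.91 ± 0.14 and 1.86 ± 0.17. Without replicate 1 they fell to 0.78, 1.19, -0.08 and 1.37 at 100/100 and to 1.42, 1.39, 0.80 and 1.57 at 150/50. The value of -0.08 was the only fitted activity of the 6 alleles that changed sign when 1 library was left out.

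The 50/150 fragment of the same SNP lay on the other side of the input. Its allele 1 was below the input in 11 of 11 libraries, at -0.94, -2.31 and -2.32 in HEK-293T, at -1.22, -3.15 and -0.96 in SH-SY5Y, at -0.05, -0.78 and -0.61 in Neuro-2a and at -1.15 and -1.29 in PC-12. Allele 2 stood at -1.13, -2.70 and -2.29 in HEK-293T, at -1.94, -2.88 and -2.36 in SH-SY5Y, at 0.33, -1.25 and -1.39 in Neuro-2a and at -1.17 and -1.46 in PC-12. Replicate 1 of Neuro-2a was its single library above the input. The fitted values were -1.70 ± 0.43, -1.51 ± 0.54, -0.44 ± 0.22 and -1.21 ± 0.10 for allele 1 and -1.88 ± 0.43, -2.34 ± 0.26, -0.54 ± 0.50 and -1.31 ± 0.13 for allele 2, and Neuro-2a had the values nearest to 0. Without replicate 1 they were -2.31, -1.67, -0.72 and -1.29 for allele 1 and -2.48, -2.57, -1.34 and -1.46 for allele 2, so that both values of Neuro-2a moved by more than 1.5 times. These levels were measured from high input counts, and the RNA counts of both alleles lay between 1159 and 12809.

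In edgeR's quasi-likelihood test, adjusted by Benjamini-Hochberg over all alleles of a line, 3 of the 6 alleles were above the input in HEK-293T, 4 in SH-SY5Y, 3 in Neuro-2a and 4 in PC-12. Of all alleles tested, 1.35%, 7.43%, 4.08% and 5.64% were called above the input in the same order. The choice of the SNP used this contrast, so nothing is read from the difference. Below the input stood 0, 1, 0 and 2 of the 6, all at 50/150, beside 1.02%, 5.51%, 1.7% and 4.77% of all alleles. Without any 1 of the 3 input libraries none of the 6 alleles was called in either direction in any line. The same held for nearly all alleles of the library, with 0% called above the input in each line and 0% below it, except 0.192% below it in SH-SY5Y. Without RNA replicate 2 of SH-SY5Y, the calls were 2 of the 6 above and 2 below, beside 5.63% and 6.72% of all alleles. Without RNA replicate 1, 2 alleles were below the input in HEK-293T and 2 in Neuro-2a, beside 12.4% and 16.2% of all alleles.

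The placements were compared within each library, as the difference in log2 RNA over input between fragments that carry the same allele. Tests are given for allele 1, since allele 2 at 100/100 and 150/50 entered the choice. Allele 1 sits on the same fragments as allele 2, apart from the SNP, so its tests are not independent of that choice. For allele 1 the 150/50 fragment was above the 50/150 fragment in 11 of 11 libraries, by 2.78, 3.61 and 3.85 in HEK-293T, by 3.45, 4.72 and 2.07 in SH-SY5Y, by 1.13, 1.64 and 1.40 in Neuro-2a and by 3.24 and 2.86 in PC-12. The fitted difference was 3.41 ± 0.32 in HEK-293T (n = 3 RNA libraries), a 10.7-fold difference (edgeR, Benjamini-Hochberg adjusted p = 0.0150). In PC-12 it was 3.05 ± 0.16 (n = 2), with an adjusted p of 0.00509 by the same test. This SE and p also draw on the spread of the input libraries, which differed less from each other than the RNA libraries did. They thus do not measure the spread of the RNA libraries alone. SH-SY5Y had a difference of the same size with a larger spread, 3.42 ± 0.70 (n = 3, edgeR adjusted p = 0.0780), and Neuro-2a a smaller one, 1.39 ± 0.22 (n = 3, edgeR adjusted p = 0.0542), and neither passed. Without replicate 1 the differences were 3.73 in HEK-293T, 3.39 in SH-SY5Y, 1.52 in Neuro-2a and 2.86 in PC-12. Of all SNP alleles carried by both placements, 2.11% were called in HEK-293T, 3.09% in SH-SY5Y, 1.75% in Neuro-2a and 7.07% in PC-12.

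These calls rested on few libraries. The HEK-293T call was lost without any 1 input library (edgeR adjusted p 0.137 to 0.139) and without RNA replicate 3 (0.0512), and the PC-12 call without any 1 input library (0.0912 to 0.0971). The share of all SNP alleles called in those fits was not counted, so the loss may not be particular to this SNP. Calls on activity were lost for nearly all alleles of the library without an input library. Neuro-2a passed without RNA replicate 1 (0.00335, with 29.2% of all SNP alleles called) or 2 (0.0445, 2.05%), and SH-SY5Y without RNA replicate 1 (0.0444, 45.6%) or 3 (0.0242, 5.41%). The difference itself stayed positive in each of these fits.

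Between 100/100 and 50/150, allele 1 was higher at 100/100 in 10 of 11 libraries, with replicate 2 of Neuro-2a at -0.07 as the exception. The fitted differences were 2.91 ± 0.43 in HEK-293T, 3.29 ± 0.63 in SH-SY5Y, 0.98 ± 0.57 in Neuro-2a and 3.04 ± 0.31 in PC-12, with edgeR adjusted p of 0.0911, 0.0760, 0.511 and 0.0608, so none passed. Without replicate 1 they were 2.98, 3.22, 0.50 and 2.66. This pair of placements gave few calls over all SNP alleles, 0%, 0%, 1.7% and 0.239% in the same order. Left without 1 RNA library, the difference passed in HEK-293T without replicate 1 (edgeR adjusted p 0.0206, with 23% of all SNP alleles called) or 2 (0.0153, 5.43%), and in SH-SY5Y without replicate 1 (0.0312, 50.1%) or 3 (0.0354, 1.78%). It also passed in PC-12 without replicate 1 (1.2e-05, 89.3%) or 3 (2.8e-05, 72.1%), where a single RNA library remains and the spread comes from the input alone. Between 150/50 and 100/100 the differences for allele 1 were 0.50 ± 0.36, 0.13 ± 0.18, 0.40 ± 0.69 and 0.01 ± 0.17, with edgeR adjusted p of 0.563, 0.673, 0.827 and 0.960, beside 0.237%, 5.1%, 0.542% and 2.93% of all SNP alleles called. Without replicate 1 they were 0.75, 0.17, 1.02 and 0.20. The SE is small in SH-SY5Y and PC-12 and wide in Neuro-2a, where the libraries ran from -0.82 to 1.71.

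For allele 2 the fitted gap to 50/150 was wider than for allele 1 in each line, which was not tested as such. From 100/100 it was 4.79 ± 0.81 in HEK-293T, 5.60 ± 0.70 in SH-SY5Y, 3.69 ± 0.99 in Neuro-2a and 4.18 ± 0.54 in PC-12. From 150/50 it was 4.59 ± 0.67, 5.29 ± 0.40, 2.72 ± 0.78 and 3.90 ± 0.24 in the same order. Without replicate 1 the gaps were 5.60, 6.30, 4.66 and 4.94 from 100/100 and 5.27, 5.70, 3.51 and 4.22 from 150/50. Both gaps were positive in 11 of 11 libraries. In the libraries numbered 1 the gap from 100/100 was 1.47 to 4.13, and in the others it was 4.60 to 6.39. The number of other SNP alleles whose gaps split in this way was not counted. Libraries numbered 1 stood apart across the whole library, so nothing particular to this SNP is read from the split. The fitted difference of 150/50 from 100/100 was -0.17 ± 0.29 in HEK-293T, -0.29 ± 0.30 in SH-SY5Y, -0.92 ± 0.27 in Neuro-2a and -0.28 ± 0.30 in PC-12. Without replicate 1 it was -0.33, -0.60, -1.15 and -0.72, and without replicate 3 it changed sign in HEK-293T, to 0.14, and in PC-12, to 0.17.

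The series asks whether enhancer activity is biased towards 1 allele, which is read here as the RNA over input of allele 2 relative to that of allele 1. At 100/100 the effect differed between the libraries. In those numbered 1 the log2 allelic effect was 0.08 in HEK-293T, 0.01 in SH-SY5Y, -0.09 in Neuro-2a and -0.02 in PC-12, so the RNA held the alleles in nearly the ratio of the input. In replicates 2 and 3 it was 2.65 and 2.23 for HEK-293T, 2.30 and 2.72 for SH-SY5Y and 4.21 and 2.87 for Neuro-2a, and replicate 3 of PC-12 stood at 2.10. In counts, allele 2 outnumbered allele 1 by 9.05 to 9.20 times in the input, by 8.53 to 9.60 times in the RNA libraries numbered 1 and by 39.1 to 168 times in the 7 others. The values of the libraries numbered 1 and of the others do not overlap. For how many other fragments this holds was not counted. Over all fragments, 6.24% to 25.3% had an effect over 1 in size in the libraries numbered 1. In the others the share was 49.2% to 58.0%, so larger effects there were common in the library.

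At 150/50 the split was the same in direction and smaller in size. The effect was 0.22 in replicate 1 of HEK-293T, 0.30 in that of SH-SY5Y, 0.26 in that of Neuro-2a and 0.33 in that of PC-12. Replicates 2 and 3 stood at 1.59 and 1.14 for HEK-293T, at 1.21 and 2.27 for SH-SY5Y and at 1.14 and 1.59 for Neuro-2a, and replicate 3 of PC-12 at 1.18. Allele 2 was favoured in 11 of 11 libraries. It was the rarer allele of this fragment in the input and outnumbered allele 1 in the RNA of the 7 libraries numbered 2 and 3, at 53.8% to 71.8% of the pair.

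At 50/150 the effect had no common sign. It was -0.19, -0.39 and 0.03 in HEK-293T, -0.72, 0.27 and -1.39 in SH-SY5Y, 0.38, -0.47 and -0.78 in Neuro-2a and -0.02 and -0.18 in PC-12, so allele 2 was favoured in 3 of 11 libraries.

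Over all libraries of a line, the fitted effect at 100/100 was 1.69 ± 0.73 in HEK-293T, 1.72 ± 0.76 in SH-SY5Y, 2.42 ± 1.18 in Neuro-2a and 1.04 ± 0.71 in PC-12. At 150/50 the fits gave 0.98 ± 0.38, 1.26 ± 0.52, 1.00 ± 0.39 and 0.76 ± 0.29. Allele 2 of these placements entered the choice, so their effects are a description with no p. At 50/150 they gave -0.18 ± 0.21, -0.62 ± 0.45, -0.29 ± 0.35 and -0.10 ± 0.12, and edgeR's test, adjusted over all fragments of a line, gave p of 0.826, 0.500, 0.823 and 0.638. EdgeR, DESeq2 and limma-voom each called 0 of the 3 fragments in each line. Among all fragments edgeR called 0% in HEK-293T, 0.166% in SH-SY5Y, 0.187% in Neuro-2a and 0% in PC-12, DESeq2 called 0.99%, 4.49%, 12.7% and 10.7%, and limma-voom 0% in each line.

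Without RNA replicate 1 the effect at 100/100 was 2.44 ± 0.15 in HEK-293T, 2.51 ± 0.14 in SH-SY5Y and 3.54 ± 0.45 in Neuro-2a (n = 2 RNA libraries each). At 150/50 it was 1.36 ± 0.17, 1.74 ± 0.35 and 1.37 ± 0.18. At 50/150 it was -0.18 ± 0.16, -0.56 ± 0.54 and -0.62 ± 0.14, with edgeR adjusted p of 0.542, 0.461 and 0.0384. EdgeR then called 2, 2 and 3 of the 3 fragments, beside 20.8%, 46.9% and 30.5% of all fragments, so that a call of this kind was common in the library. In PC-12 a single RNA library was left, with a spread taken from the input alone, and all 3 fragments were called at 2.10, 1.18 and -0.18, beside 89.3% of all fragments. Without replicate 3 instead, the 150/50 fragment was called there at 0.33, beside 53.9%. The size of the effect at 100/100 lay at percentiles 76.2 to 94.9 of all fragments in the 7 libraries numbered 2 and 3, and at percentiles 0.527 to 19.2 in those numbered 1.

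With all libraries, allele 2 of 100/100 had the highest fitted value of the 6 alleles in each of the 4 lines and allele 2 of 50/150 the lowest. Without replicate 3, allele 2 of 150/50 was higher than that of 100/100 in HEK-293T, at 2.53 against 2.39, and in PC-12, at 2.42 against 2.26. The gap between the highest and the lowest line was 0.43 for allele 2 of 100/100, 1.00 for that of 150/50 and 1.77 for that of 50/150, and 1.00, 0.96 and 1.21 for allele 1 in the same order. In the joint edgeR fit over 11 RNA libraries the adjusted p was 1.00 for each of the 4 alleles that did not enter the choice. Over the library 0 of 1436 alleles, or 0%, were called to differ between lines, and 40 had an unadjusted p under 0.05, and 3 were called without replicate 1 of PC-12 and 1 without its replicate 3. None of these p-values shows that the lines are alike.

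The alleles whose pattern was most like that of allele 2 at 100/100, by the root mean square difference in log2 RNA over input across the 11 RNA libraries among 1037 alleles, lay on other chromosomes. Nearest was allele 2 of the 50/150 fragment at position 84581411 of chromosome 15, near ZSCAN2, a zinc finger gene, at a difference of 0.59. It was followed by allele 1 of the 150/50 fragment at position 19367213 of chromosome 19, near MAU2, which encodes a cohesin loader, at 0.77, and by allele 1 of the 50/150 fragment at position 49909882 of chromosome 22, inside the mannosyltransferase gene ALG12, at 0.80. Nearest to allele 1 at 100/100 were allele 1 of the 150/50 fragment at position 128174008 of chromosome 3 in EEFSEC, a selenocysteine elongation factor gene, at 0.73, and alleles near ALMS1 and GLYCTK at 0.76 and 0.85.

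Among the SNPs named by position, the library held 5 others within 1000 kb, with 24 alleles in each table. One lies in PPP2R3A as well, at position 136095167, and none of its 5 alleles was called in any line, with fitted values from -0.89 to 1.19. The 4 others lie in STAG1, a cohesin subunit gene. Over the 24 alleles, 1 was called above the input in HEK-293T, 2 in SH-SY5Y, 1 in Neuro-2a and 0 in PC-12, beside 1.35%, 7.43%, 4.08% and 5.64% of all alleles. Below it stood 1 allele in STAG1 in SH-SY5Y, beside 5.51%, and 0 in the other lines. The medians of the 24 alleles were 0.17, 0.20, 0.43 and 0.20. Of 24 genes of protein phosphatase 2A, its subunits, activators and inhibitors, PPP2R3A was the only one holding a SNP named by position. The 20 SNPs named by rs number were not assigned to genes. Fragments in the other genes of the list were thus not analysed here.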

How the data were processed

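The deposited values are unnormalised read counts of each fragment and allele in each RNA and plasmid input library, in 1 table per line, per the file headers. Per the labels' protocols, the pool was transfected in triplicate and RNA was reverse-transcribed and amplified. Limma 3.40.6 is named in the submitters' processing notes. The genome build, the aligner and the counter were not given in the sources used here. PC-12 replicate 2 was not used here.

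Counts were analysed in R 4.3.3 with edgeR 4.0.16. Libraries were scaled by TMM, the trimmed mean of M values, features with a mean count of at least 10 were tested, and the two-sided quasi-likelihood test was adjusted by Benjamini-Hochberg over all features of a line at 0.05. Activity is log2 RNA over input. Allelic effects and placement differences are interactions with RNA in fits with the library as a term, and lines were compared in 1 fit over the RNA libraries. P-values are given for placements of allele 1, the allelic effect at 50/150 and lines, and not where allele 2 of 100/100 or 150/50 entered. SEs come from the estimate and its F statistic. Scripts were tested on simulated data. Replicates differed beyond sampling noise. The chi-square per degree of freedom was 44.8 to 48.9 between input libraries and 361 to 1526 between RNA libraries of a line.

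After centring, RNA libraries that share a number deviated together across lines (r of 0.147 to 0.712 in 15 of 15 pairs), although centring itself ties the deviations of a line, whereas RNA and input libraries of the same number did not (r over 0.1 in 1 of 11 pairs). RNA libraries numbered 2 and 3 from different lines also deviated together (r of 0.170 to 0.539). Those numbered 1 deviated against both (r of -0.686 to -0.274), so the pattern was not particular to a shared number. Alternatives were DESeq2 1.42.0, limma-voom with limma 3.58.1, plain log2 ratios with a pseudocount of 1, other count minimums and thresholds, the replicate block and leaving out each library. All rows of the SNP are reported. The most similar alleles were the 3 with the smallest root mean square difference for each allele of 100/100. The members, the gene list and the tests were chosen with earlier results of these data known.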

Additional observations from a re-analysis of the deposited data

How the results depend on the processing

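The activity of allele 2 at 100/100 kept its sign under all alternatives run, from 2.74 to 3.31 in Neuro-2a, 3.04 to 3.71 in SH-SY5Y, 2.39 to 3.16 in HEK-293T and 2.26 to 3.47 in PC-12. This value entered the choice of the SNP and was above the input in each of the 11 RNA libraries. Its kept sign is thus a description and no support. The number of the 6 alleles called above the input was less stable. At an adjusted p of 0.01 it was 0 in Neuro-2a and HEK-293T and 1 in SH-SY5Y and PC-12, while of all alleles 11, 0, 8 and 21 were called above in this order. With the replicate block it was 0 in each line, as it was over all alleles. Leaving out 1 library gave 0 to 3 alleles for Neuro-2a and 0 to 4 for both HEK-293T and SH-SY5Y. Of all alleles, 0% to 25.1%, 0% to 19.4% and 0% to 30.7% were called above the input in these fits, in that order. Each 0 came from the fits without an input library, so this loss was common to the library. For PC-12, 0 of the 6 and 0% of all alleles were called above without any 1 input library. The block left the activity of allele 2 at 100/100 at 2.84 in Neuro-2a, 2.71 in HEK-293T, 3.19 in SH-SY5Y and 2.89 in PC-12, and changed no call between lines (edgeR adjusted p 0.250 to 0.843 for the 4 alleles that did not enter the choice). The number of the 3 fragments with an allelic effect went from 0 to 3 in Neuro-2a and from 0 to 2 in SH-SY5Y and HEK-293T without RNA replicate 1. Of all fragments, 30.5%, 46.9% and 20.8% were then called in the same order, so the change was common in the library. For single fragments, the allelic effect of 100/100 in PC-12 ran from -0.0192 without RNA replicate 3 to 2.10 without RNA replicate 1. The difference of 150/50 from 100/100 for allele 1 ran from -0.24 to 1.02 in Neuro-2a, without RNA replicates 2 and 1, and from -0.18 to 0.20 in PC-12, without RNA replicates 3 and 1, and it was -0.03 there without input replicate 2. Over all alleles, edgeR called 60, 116, 21 and 91 above the input in Neuro-2a, SH-SY5Y and HEK-293T, then PC-12, DESeq2 262, 295, 244 and 359, and limma-voom 60, 72, 25 and 114. Below the input these were 25, 86, 16 and 77 by edgeR, 146, 193, 126 and 292 by DESeq2 and 52, 114, 38 and 107 by limma-voom. The cause of these changes was not tested. The lowest count of the 6 alleles was 518, for allele 1 of 100/100 in Neuro-2a, where the log2 activity of that allele had an SD of 1.38 between libraries.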
